A study of Mus musculus with 28 samples.

Results

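The 35 genes followed here were a list of names from glycolysis and the response to low oxygen, out of 24089 genes in the RNA-seq table, picked by pathway and with no threshold on a measured value. They comprised 4 glucose and lactate transporters, 16 glycolytic enzymes, 5 kinases that set the fate of pyruvate or the level of fructose 2,6-bisphosphate, 3 genes of oxygen sensing (Hif1a, Egln1 and Egln3) and 7 further targets of the hypoxia response. Glycolysis turns glucose into pyruvate and lactate, and T cells that divide after stimulation of the T cell receptor draw heavily on it. Glucose enters through the GLUT transporters, a chain of cytosolic enzymes splits and oxidises it, and monocarboxylate transporters carry the lactate out. The transcription factor HIF-1α raises many of these genes when oxygen is low, prolyl hydroxylases of the EGLN family mark HIF-1α for destruction when oxygen is present, and some of the same genes also answer to growth signals and to nutrient stress.

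The study followed naïve CD4+ T cells on the way to Th9 cells, the helper T cells that secrete IL-9, and asked what TGF-β and IL-4 change when given alone or together. All cells came from adult Tgfbr1 f/f ER-cre+ mice on a C57BL/6 background, in which tamoxifen switches on a Cre recombinase that removes the type I TGF-β receptor gene. Mice given oil are called WT and mice given tamoxifen are called KO. These agents are named in the labels of the DNase libraries, the RNA-seq labels read WT and KO alone, and the same origin was assumed for them, so that loss of the receptor and exposure to tamoxifen cannot be told apart. Cells of both genotypes were stimulated through CD3 and CD28 with medium alone (control), TGF-β, IL-4 or both cytokines (TGF-β + IL-4), and every group of the 8 held 3 RNA-seq libraries numbered 1 to 3, read here as 3 mice of that genotype. The WT cells carried the same floxed alleles and Cre. The time in culture before RNA extraction was not given in the sources used here. Expression was given as RPKM, the reads of a gene per kilobase of its length, scaled to the mapped reads of the library. DNase I hypersensitive sites (DHSs), the stretches of open chromatin that DNase I cuts, were given for 1 mouse per genotype in control and TGF-β + IL-4 cells, as 4 lists with no replicate.

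The headings of the RPKM table conflicted with a table of read counts for 8 of the WT libraries. Genes at 0 and genes above 0 were compared between each of these count columns and every RPKM column, over 1991 to 3821 genes per library. The best column reached at least 99.8% of genes alike and the next best at most 85.8%. The heading named the matching library for 2 of the 8 and a different library for 6. Reading the columns by position, in the order of library numbers (WT then KO, each mouse in the order control, TGF-β, IL-4, TGF-β + IL-4), matched 8 of 8. All values below use the positions. The other 16 columns, 4 WT and 12 KO, had no counts and were placed by that order alone, and 20 columns would carry another label if the headings were right. With the headings in place of the positions, 0 of the genes followed here passed the test in any comparison below. The columns headed WT control held, by the read counts, a control, a TGF-β and an IL-4 library. Groups as headed thus mixed treatments, and the share of all genes called in that reading is not given here. This 0 can therefore not be read as a trait of these genes.

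Total read numbers were unknown, and the relative depth of the libraries, read from the steps of their lowest values, ran from 0.575 to 1.2 of the first WT control library, with a median of 0.846. It was 0.91 to 1.03 in the 3 WT control libraries and 0.598 to 0.724 in the 3 of WT TGF-β + IL-4, with no overlap. Tgfbr1 itself stood at 3.02 to 3.31 RPKM in WT control and at 2.32 to 5.18 RPKM over the KO libraries. KO control and WT control were not told apart at that gene (log2 fold change -0.21, adjusted p = 0.22 by limma with Benjamini-Hochberg adjustment), so its transcript level did not check the genotype in control cells. In WT TGF-β + IL-4 it stood at 17.6 to 20.7 RPKM, a rise that differed from KO by -1.83 on the log2 scale. Some genes outside the list still responded in KO. With TGF-β alone, Foxp3 rose by 1.09 ± 0.09 (SE) in KO and by 3.28 ± 0.09 (SE) in WT. With both cytokines in KO, Foxp3 differed from control by 0.12 ± 0.09 (SE) and Il9 rose by 1.03 ± 0.18 (SE). The KO values had, in order, adjusted p = 1.9e-06, 0.51 and 3.3e-04 by limma. How much receptor signalling was left in KO was not tested. CD4 T cell markers (6 genes) summed to 1035 to 1469 RPKM over all libraries. Their sums were 1154 to 1245 in WT control and 1405 to 1469 in WT TGF-β + IL-4, with no overlap. Cd3e and Lck had higher means there than in WT control, and Cd4 and Cd28 lower ones. Markers of other cells also moved with the treatment. The 6 neutrophil genes, all of them in the table, summed to 6.11 to 18 RPKM in WT control, 51.6 to 85.3 with TGF-β, 19.4 to 53.5 with IL-4 and 90.6 to 132 with both cytokines, against 0.94 to 24 over the KO libraries. S100a8 and S100a9 were at 0 in 3 libraries, Ngp and Camp in 4 and Elane in 2. The 7 myeloid genes in the table summed to 4.49 to 8.30 RPKM in WT control, 17 to 36 with both cytokines and 0.232 to 12.1 in KO. Their part in the results below was not tested. These are bulk samples, in which fewer cells of a type and less RNA per cell cannot be told apart.

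The enzymes of glycolysis were among the most abundant transcripts of these cells. Gapdh, which oxidises glyceraldehyde 3-phosphate, had a mean of 2531 RPKM over the 24 libraries and ranked 40 among all genes. Ldha, which reduces pyruvate to lactate, had a mean of 2177 RPKM and ranked 50. Pkm, the pyruvate kinase that closes the chain, and Aldoa, the aldolase that splits fructose 1,6-bisphosphate, followed at 1166 and 1102 RPKM and ranks 103 and 108. Per kilobase of transcript these 4 genes thus led the list, and 2 of them were in the top 100 of the table. The first enzymes of the chain stood far lower, with a mean of 42.9 RPKM for Hk1 and 13 RPKM for Hk2, both hexokinases that trap glucose as its phosphate. Among isozymes, Pfkl (77.4 RPKM) and Pfkp (75.3 RPKM) exceeded Pfkm (5.8 RPKM), which are forms of phosphofructokinase, and Ldhb reached 21.7 RPKM.

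Of the transporters, Slc2a1, which encodes GLUT1, the main glucose carrier of activated T cells, had a mean of 54.6 RPKM, and Slc2a3, which encodes GLUT3, 6.07 RPKM. Slc16a1 and Slc16a3, the lactate carriers MCT1 and MCT4, had means of 47.8 and 8.56 RPKM. Hif1a stood at 45.7 RPKM, whereas the hydroxylase genes Egln1 and Egln3 stood at 2.89 and 4.33 RPKM. Aldoc, Vegfa and Mxi1 had means of 0.634, 0.134 and 0.756 RPKM, under the minimum of 1 that a gene needed to enter the test, and 32 of the 35 genes were tested. The lowest mean that entered was that of Pfkfb4, 1.13 RPKM. Egln3 had the widest range of the tested genes, 18.9-fold between its lowest and highest library, followed by Ddit4 at 4.32-fold and Pdk2 at 3.10-fold. Pgam1, the mutase between 3- and 2-phosphoglycerate, varied least, by 1.26-fold. Some counts are uncertain. Besides Gapdh, Eno1 and Bnip3l, near-identical copies of the coding sequence (95% identity or more over at least 80% of its length) lie elsewhere in the genome for Bnip3, Pgk1, Pgam1, Ldha and Ldhb, 8 genes in all. Exons of Slc2a1, Slc16a3, Hk1, Gpi1, Pfkp, Tpi1, Hif1a, Ankrd37 and Mxi1 overlap a gene on the other strand, and the libraries did not mark the strand.

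**Figure D1:**
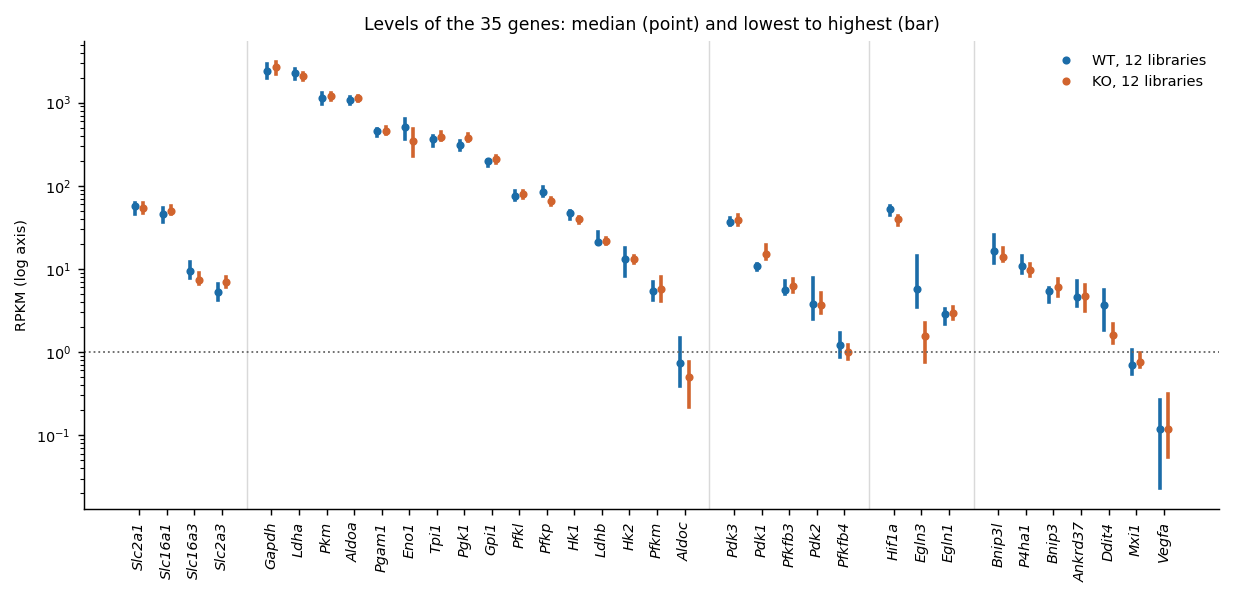
RPKM of the 35 genes on a log axis, grouped by role and separated by vertical lines (transporters, enzymes, kinases, oxygen sensing, hypoxia targets). Points are medians and bars run from the lowest to the highest of 12 WT (blue) or 12 KO (orange) libraries, and the dotted line marks 1 RPKM. The enzymes span from Gapdh at 2531 RPKM to Aldoc at 0.634 RPKM in the mean, and the WT and KO bars of Egln3 do not meet.

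Differences between groups were tested with limma on log2(RPKM + 1) in a single fit of the 8 groups over 9726 genes, and p-values were adjusted by Benjamini-Hochberg over all of these genes. A gene was called when its adjusted p was under 0.01 and its fold change over 1.5, and fold changes on this scale understate those of low genes. The comparisons within a genotype share control libraries and are given side by side without any test of their overlap.

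In WT cells, TGF-β + IL-4 raised Pdk2, Bnip3l, Ddit4 and Egln3 and lowered Hk2 and Ankrd37. These were 6 of the 32 tested genes called against WT control, where 8.46% of all genes tested were called (5.93% higher and 2.53% lower). The median change of the 32 genes was -0.06 and that of all genes tested was 0.02 on the log2 scale. By role, 1 of 5 kinases rose, 1 of 3 oxygen sensing genes rose, 1 of 15 tested enzymes fell, and of 5 tested hypoxia targets 2 rose and 1 fell. The CD4 T cell, neutrophil, myeloid and B cell marker sums were also highest in WT TGF-β + IL-4 in the mean. The B cell sums there, 15.7 to 33.8 RPKM, overlapped with the 14.8 to 23.3 RPKM of WT control. All 3 of these libraries were shallower than the 3 of WT control, as given above. The part of depth in these calls, among them those of low genes such as Pdk2, Egln3 and Ddit4, was not tested.

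Pdk2 encodes a kinase that switches off the pyruvate dehydrogenase complex and so keeps pyruvate out of the mitochondrial cycle (mm9 chr11:94887572-94902668, minus strand). It stood at 3.07, 3.12 and 3.22 RPKM in WT control and at 6.73, 6.58 and 7.77 RPKM with both cytokines. With TGF-β alone it stood at 4.1, 4.11 and 4.79 RPKM and with IL-4 alone at 3.07, 3.48 and 2.51 RPKM. All 3 libraries with both cytokines lay above all 9 other WT libraries. The rise against WT control was 0.95 ± 0.10 (SE) on the log2 scale, or 1.94-fold (limma, adjusted p = 1.7e-07). It also rose against WT TGF-β by 0.59 ± 0.10 (SE) (limma, adjusted p = 2.5e-04).

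Egln3 encodes PHD3, a prolyl hydroxylase that is itself a HIF target (mm9 chr12:55279968-55304847, minus strand). It stood at 4.06, 4.26 and 3.56 RPKM in WT control, 12.3, 14.5 and 13.6 RPKM with TGF-β, 3.52, 3.96 and 4.86 RPKM with IL-4 and 6.44, 6.74 and 7.19 RPKM with both cytokines. The TGF-β libraries were the highest, those with both cytokines came next, and control and IL-4 libraries overlapped below them. TGF-β alone raised Egln3 by 1.54 ± 0.14 (SE), or 2.91-fold (limma, adjusted p = 4.1e-08). Both cytokines raised it by 0.65 ± 0.14 (SE) (limma, adjusted p = 0.0012). The addition of IL-4 to TGF-β lowered it by 0.89 ± 0.14 (SE) (limma, adjusted p = 1.8e-04).

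Ddit4 encodes REDD1, an inhibitor of mTORC1 that hypoxia and other stresses induce (mm9 chr10:59412423-59414518, minus strand). Its values were 2.75, 2.83 and 2.23 RPKM in WT control, 4.56, 5.63 and 5.14 with TGF-β, 1.83, 2.42 and 1.84 with IL-4 and 4.66, 4.95 and 5.02 with both cytokines. Every library with TGF-β, alone or with IL-4, exceeded every library without it, and the TGF-β and TGF-β + IL-4 groups overlapped. The rise was 0.71 ± 0.11 (SE) with both cytokines (limma, adjusted p = 5.0e-05) and 0.76 ± 0.11 (SE) with TGF-β alone (limma, adjusted p = 3.0e-05).

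Bnip3l encodes NIX, an outer membrane protein that targets mitochondria for removal (mm9 chr14:67604076-67627714, minus strand). It stood at 13.9, 13.4 and 14.1 RPKM in WT control, 18.6, 18.2 and 19 with TGF-β, 13.3, 14.3 and 11.9 with IL-4 and 21.6, 23.5 and 25.4 with both cytokines. Libraries with TGF-β lay above control, and those with both cytokines lay above TGF-β alone with no overlap. The rise against control was 0.72 ± 0.09 (SE), or 1.65-fold (limma, adjusted p = 1.2e-06). With TGF-β alone the difference was 0.40 ± 0.09 (SE), under the fold threshold (limma, adjusted p = 0.0015). The genome holds 2 near-identical copies of its coding sequence.

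Hk2, the inducible hexokinase, fell (mm9 chr6:82675019-82724448, minus strand). It stood at 15.3, 17.6 and 15.2 RPKM in WT control, 10.9, 11.3 and 9.33 with TGF-β, 15.2, 16.4 and 17.9 with IL-4 and 8.73, 9.05 and 8.19 with both cytokines. The 3 libraries with both cytokines were the lowest of the 12, the TGF-β libraries came next, and control and IL-4 overlapped above them. The fall was 0.82 ± 0.08 (SE) on the log2 scale, 1.76-fold lower (limma, adjusted p = 1.4e-07). With TGF-β alone the difference was -0.57 ± 0.08 (SE), just under the fold threshold (limma, adjusted p = 2.2e-05). Hk1, the constitutive hexokinase, differed by 0.02 ± 0.06 (SE) with both cytokines (limma, adjusted p = 0.85).

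Ankrd37, a small ankyrin repeat gene that is a HIF target, stood at 7.03, 7.23 and 5.48 RPKM in WT control, 4.41, 4.07 and 5.76 with TGF-β, 4.26, 4.83 and 5.61 with IL-4 and 4.03, 4.27 and 3.62 with both cytokines (mm9 chr8:47082256-47085221, minus strand). Both cytokines lay below control with no overlap, and the single-cytokine groups overlapped with both of these. The fall was 0.60 ± 0.13 (SE) (limma, adjusted p = 7.4e-04). Its exons overlap those of Lrp2bp and Ufsp2 on the other strand. Ufsp2, the more abundant of these neighbours, differed by 0.05 ± 0.07 (SE) in the same comparison (limma, adjusted p = 0.62). In the 8 WT libraries that the read counts identified, the fall of Ankrd37 was 0.58 and no longer passed the test (limma, adjusted p = 0.013), whereas the other 5 calls passed there too. 

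**Figure D2:**
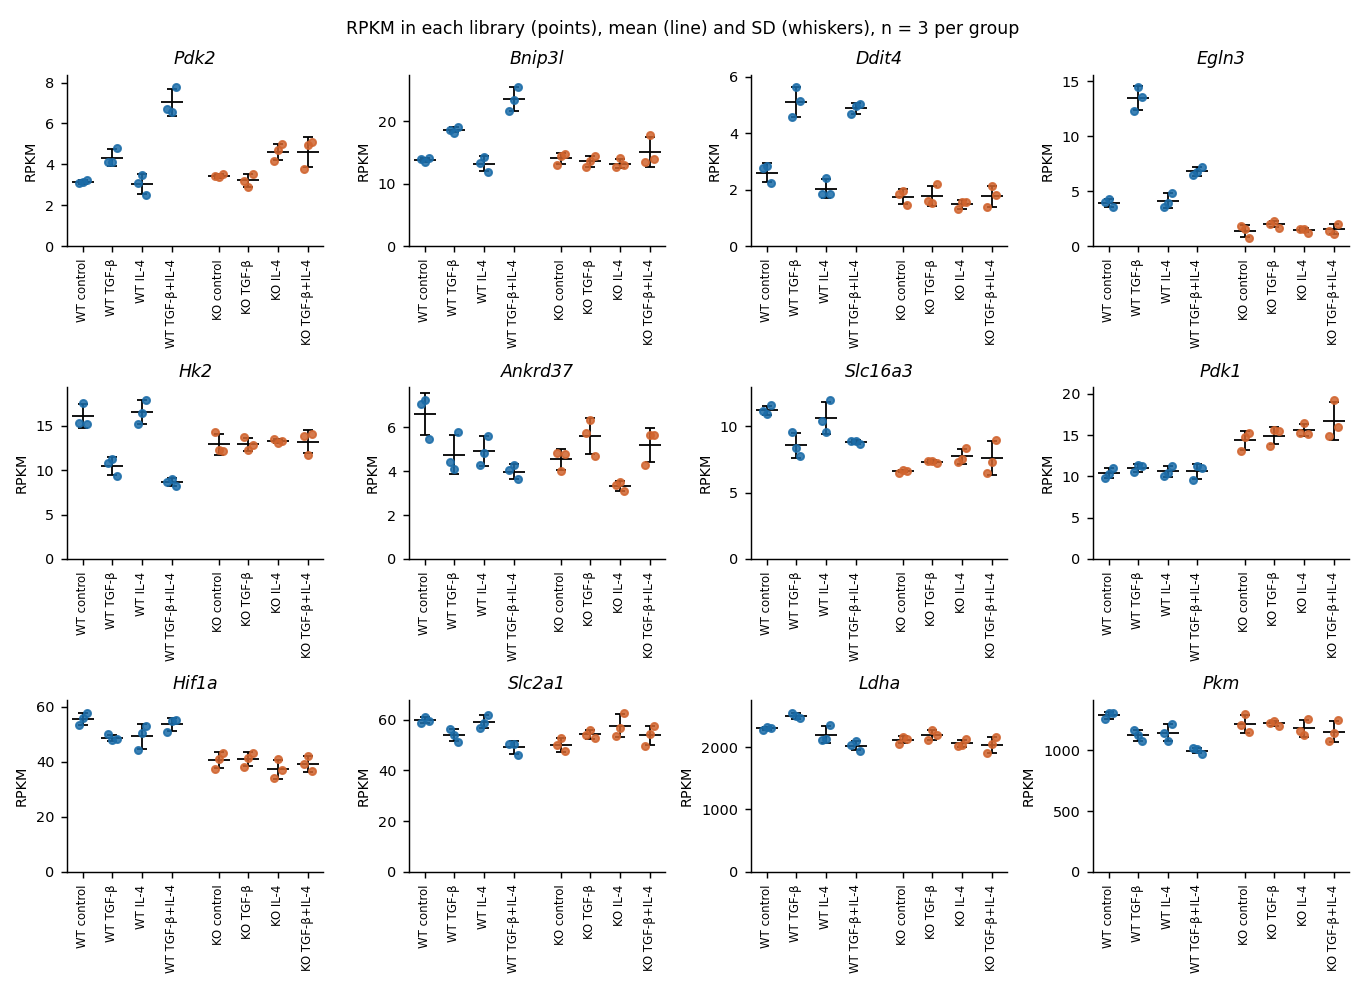
RPKM of 12 of the genes in each of the 24 libraries (points; WT blue, KO orange), with the mean as a line and the SD as whiskers, n = 3 per group, each axis from 0. The upper row holds the 4 genes that rose in WT TGF-β + IL-4, the middle row Hk2 and Ankrd37, which fell, and the 2 genes called only between genotypes, and the lower row Hif1a, Slc2a1, Ldha and Pkm. In WT the 3 libraries with both cytokines stand highest for Pdk2 and Bnip3l and lowest for Hk2.

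The promoters of 5 of these 6 genes are shown because all of them hold the letters ACGTG, the core of the hypoxia response element that HIF binds, on one strand or the other. The sequences were taken from RefSeq (GRCm38.p6, 250 bases before to 50 after the transcription start, minus strand for all 5, written 5′ to 3′ along the gene), and the capitals mark ACGTG or its reverse complement CACGT. Bnip3l was not in the promoter table. The locations are chr12:54203825-54204124 for Egln3, chr10:59951721-59952020 for Ddit4, chr11:95041322-95041621 for Pdk2, chr6:82774405-82774704 for Hk2 and chr8:45999801-46000100 for Ankrd37.
Egln3: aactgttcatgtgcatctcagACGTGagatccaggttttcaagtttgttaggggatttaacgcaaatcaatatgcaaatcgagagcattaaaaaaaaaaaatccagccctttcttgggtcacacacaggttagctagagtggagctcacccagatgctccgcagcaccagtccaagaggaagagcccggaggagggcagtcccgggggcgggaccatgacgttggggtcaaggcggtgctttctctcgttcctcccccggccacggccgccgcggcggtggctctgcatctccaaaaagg
Ddit4: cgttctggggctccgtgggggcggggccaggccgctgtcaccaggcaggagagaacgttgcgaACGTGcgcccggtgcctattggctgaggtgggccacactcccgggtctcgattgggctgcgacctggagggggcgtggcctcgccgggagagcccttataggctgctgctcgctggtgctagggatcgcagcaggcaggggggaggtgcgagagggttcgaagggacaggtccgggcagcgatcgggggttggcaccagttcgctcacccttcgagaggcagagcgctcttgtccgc
Pdk2: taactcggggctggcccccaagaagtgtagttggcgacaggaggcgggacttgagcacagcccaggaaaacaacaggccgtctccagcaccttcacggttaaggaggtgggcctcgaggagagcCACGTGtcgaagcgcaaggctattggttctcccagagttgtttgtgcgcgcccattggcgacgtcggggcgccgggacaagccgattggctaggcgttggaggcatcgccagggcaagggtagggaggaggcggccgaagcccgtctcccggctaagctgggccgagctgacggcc
Hk2: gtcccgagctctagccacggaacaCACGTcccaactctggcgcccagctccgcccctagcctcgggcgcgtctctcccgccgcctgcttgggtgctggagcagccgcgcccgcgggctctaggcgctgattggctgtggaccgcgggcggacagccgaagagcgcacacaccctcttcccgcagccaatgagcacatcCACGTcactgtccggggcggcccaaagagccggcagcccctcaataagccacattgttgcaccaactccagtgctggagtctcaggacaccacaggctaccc
Ankrd37: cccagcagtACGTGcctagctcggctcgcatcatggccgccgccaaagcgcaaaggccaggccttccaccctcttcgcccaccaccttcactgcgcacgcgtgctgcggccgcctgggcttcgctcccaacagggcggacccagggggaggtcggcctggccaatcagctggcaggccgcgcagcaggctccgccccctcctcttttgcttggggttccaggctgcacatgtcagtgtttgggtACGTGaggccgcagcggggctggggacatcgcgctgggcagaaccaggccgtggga
In Pdk2 the match reads on both strands, as the CACGTG of an E-box, the motif of Myc, USF and clock proteins. A second annotated start of Pdk2 had no match in its window. The motif was present in promoters of genes that rose (Egln3, Ddit4, Pdk2) and of genes that fell (Hk2, Ankrd37).

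The same letters were common across the list. Of 50 RefSeq promoters of 33 of the genes (Slc2a3 and Bnip3l were not in the table), 29 held ACGTG, or 58%, against 19.6% of all 32851 promoters and 26.8% of the 9346 promoters of genes tested. Counted by gene, 25 of 33 had it in at least 1 promoter (75.8%), against 30.6% of 7359 other genes tested. Median GC content was 63.2% in the promoters of the list and 60.7% in those of the other genes. With GCGTG counted as well, the share was 80% of the 50 promoters and 64.1% of the promoters of genes tested. Windows of a gene with several starts can overlap, and a match is a string of letters, not a measured binding site. The list was picked by pathway, hypoxia targets included, so these shares are a description and test nothing about HIF. Its 33 genes had 50 promoters, against 9303 for the 7359 other genes, and more promoters per gene favour a match by gene.

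No transporter was called. All 4 lay lower under both cytokines, by 0.22 to 0.32 on the log2 scale, and none passed the fold threshold. Slc2a1 stood at 58.8, 61 and 59.3 RPKM in WT control and 50.5, 50.4 and 46.1 RPKM with both cytokines, with 56.1, 54.1 and 51.3 with TGF-β and 56.8, 58.8 and 61.8 with IL-4. The libraries with both cytokines were the lowest 3 of the 12 WT libraries. Slc2a3 stood at 5.41, 5.46 and 5.69 RPKM in control, 4.72, 4.23 and 4.46 with TGF-β, 5.67, 6.08 and 6.5 with IL-4 and 4.47, 5.13 and 4.22 with both cytokines, where the first and last groups did not overlap. The differences were -0.28 ± 0.06 (SE) for Slc2a1 and -0.22 ± 0.08 (SE) for Slc2a3 (limma, adjusted p = 0.0011 and 0.031).

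Among the 15 tested enzymes, Hk2 was called and 10 lay below 0, with a median of -0.18 on the log2 scale. Pkm stood at 1256, 1306 and 1303 RPKM in WT control, 1167, 1127 and 1078 with TGF-β, 1138, 1076 and 1214 with IL-4 and 1015, 1007 and 970.1 with both cytokines. The last group was the lowest, with no overlap with any other, and differed from control by -0.37 ± 0.06 (SE), a fold under the threshold (limma, adjusted p = 6.6e-05). Ldha stood at 2275, 2318 and 2310.0 RPKM in control, 2545, 2489 and 2457 with TGF-β, 2108, 2129.9 and 2360.0 with IL-4 and 2039.9, 2090.2 and 1941 with both cytokines. TGF-β alone gave the highest and both cytokines the lowest libraries, and the difference of both cytokines from control was -0.19 ± 0.05 (SE) (limma, adjusted p = 0.0082). Ldhb, the isoform that favours pyruvate from lactate, lay the other way at 0.29 ± 0.06 (SE) (limma, adjusted p = 5.2e-04). The enzymes between these steps, Gpi1, Pfkl, Pfkm, Pfkp, Aldoa, Tpi1, Gapdh, Pgk1, Pgam1 and Eno1, differed from control by -0.37 (Eno1) to 0.14 (Pfkm). The SE was 0.21 for Eno1 and 0.10 for Pfkm, and neither passed an adjusted p of 0.05 (limma, adjusted p = 0.16 and 0.25). Pgk1 did pass, at -0.30 ± 0.04 (SE) (limma, adjusted p = 1.6e-05), as did Pfkl, Aldoa and Tpi1, all lower.

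The kinases other than Pdk2 were not called. Pdk1 differed by 0.03 ± 0.08 (SE) and Pdk3 by 0.10 ± 0.07 (SE), and Pfkfb3 and Pfkfb4, which set the fructose 2,6-bisphosphate that drives phosphofructokinase, by -0.06 ± 0.08 (SE) and 0.10 ± 0.10 (SE). Of the hypoxia targets, Bnip3, a mitochondrial relative of Bnip3l, differed by 0.21 ± 0.11 (SE) and P4ha1, a collagen prolyl hydroxylase, by 0.04 ± 0.09 (SE). None of these 6 passed an adjusted p of 0.05. Vegfa, the vascular growth factor, did not exceed 0.316 RPKM in any library. With no filter on low values, Mxi1 differed from WT control by 0.23 ± 0.06 (SE) with both cytokines (limma, adjusted p = 0.0098). With TGF-β alone it differed by 0.29 ± 0.06 (SE) (limma, adjusted p = 0.0031). Aldoc differed by 0.38 ± 0.14 (SE) and Vegfa by -0.02 ± 0.06 (SE) with both cytokines (limma, adjusted p = 0.049 and 0.94). All of these lay under the fold threshold, at values near the floor.

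The other shifts were small. At an adjusted p under 0.01 with no minimum fold, a criterion chosen after seeing the data, 16 of the 32 genes passed, 5 higher and 11 lower, where 28.4% of all genes tested did (16.0% higher and 12.4% lower). The 11 were Slc2a1, Slc16a1, Slc16a3, Hk2, Pfkl, Aldoa, Tpi1, Pgk1, Pkm, Ldha and Ankrd37, and Ldhb joined the 4 that rose. In 5 genes the WT TGF-β + IL-4 libraries all exceeded the WT control libraries and in 13 all lay below, where 30.0% and 24.1% of all genes tested did so. The 16 enzymes together made up 1.37%, 1.43% and 1.35% of all RPKM in the WT control libraries and 1.2%, 1.24% and 1.17% under both cytokines. The means were 1.38% ± 0.04 and 1.2% ± 0.03 (SD, n = 3), with 1.34% ± 0.05 in WT TGF-β and 1.37% ± 0.03 in WT IL-4. The TGF-β + IL-4 libraries lay below all others of WT. In KO the means ran from 1.34% to 1.38% over the 4 groups, and the 3 KO TGF-β + IL-4 libraries (1.27%, 1.35% and 1.43%) spanned the KO control range. Gapdh has 45 near-identical copies in the genome and Eno1 3, and without these 2 genes the means were 0.938% in control and 0.809% under both cytokines.

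**Figure D3:**
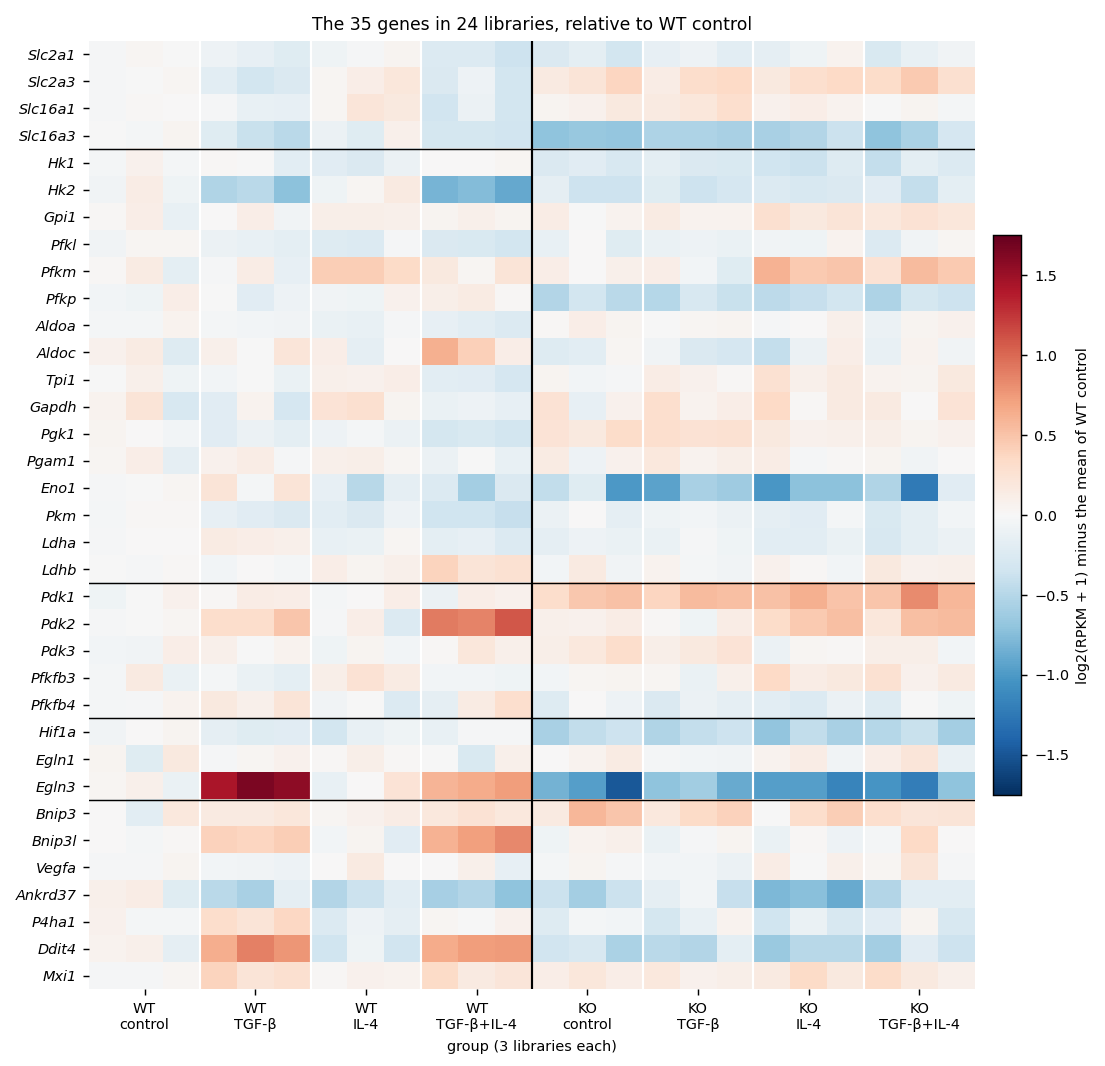
Log2(RPKM + 1) of each of the 35 genes in each of the 24 libraries minus the mean of WT control, with genes in rows by role and the 3 libraries of each group side by side. Red is above and blue below WT control. Egln3 is darkest in WT TGF-β and blue across KO, Pdk2, Bnip3l and Ddit4 are red in WT TGF-β + IL-4 and Hk2 is blue there, and the rows of Gapdh, Ldha and Pkm are pale.

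Fewer genes were called with each cytokine alone. TGF-β alone called 2 of the 32 in WT, Egln3 and Ddit4, where 5.4% of all genes tested were called. IL-4 alone called 0 of the 32 by limma, where 1.31% were called. At an unadjusted p under 0.05 by limma stood 9 of the 32, beside 1555 of all 9726 genes tested. The largest of the 9 was Pfkm, a phosphofructokinase, at 0.40 ± 0.10 (SE) (limma, adjusted p = 0.015). Against WT IL-4, both cytokines called 5 (Pdk2, Ddit4, Bnip3l and Egln3 higher, Hk2 lower), where 8.54% of all genes were called. Against WT TGF-β they called 2 (Pdk2 higher, Egln3 lower), where 2.29% were called. With no minimum fold, 5 of the 32 passed for TGF-β against control, 4 for both cytokines against TGF-β and 11 against IL-4, where 12.7%, 8.23% and 29.6% of all genes did.

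Whether both cytokines act beyond the sum of their single effects was tested as an interaction on the log2 scale, the change with both minus the sum of the changes with each. It called Pdk2, at 0.64 ± 0.14 (SE), and Egln3, at -0.93 ± 0.20 (SE) (limma, adjusted p = 0.0076 and 0.0079), where 1.25% of all genes tested were called. Both calls lay close to the threshold. Leaving out any 1 of the 12 WT libraries left 0 or 1 of the 2 called, with Pdk2 between 0.54 and 0.72 and Egln3 between -1.01 and -0.83.

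No gene of the list was called within KO. TGF-β + IL-4, TGF-β and IL-4 each called 0 of the 32 genes by limma against KO control. Of all genes tested, 2.86%, 0.0617% and 2.65% were called. At an unadjusted p under 0.05 by limma stood 6, 1 and 10 of the 32, beside 2218, 281 and 2319 of all 9726 genes tested. Hk2 stood at 14.3, 12.3 and 12.2 RPKM in KO control and 13.8, 11.7 and 14.1 RPKM with both cytokines, with 13.7, 12.3 and 12.8 with TGF-β and 13.5, 13 and 13.3 with IL-4. All 4 groups overlapped. Egln3 stood at 1.79, 1.54 and 0.766 RPKM in KO control, 2.05, 2.24 and 1.69 with TGF-β, 1.55, 1.54 and 1.22 with IL-4 and 1.42, 1.15 and 2.04 with both cytokines, all below the lowest WT library. Ddit4 stood at 1.86, 1.96 and 1.46 RPKM in KO control, 1.6, 1.53 and 2.19 with TGF-β, 1.3, 1.56 and 1.56 with IL-4 and 1.37, 2.13 and 1.8 with both cytokines, again with no separation.

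Pfkm, and the KO values of Pdk2, Bnip3l and Ankrd37, which were called in WT, complete the account of KO. Pfkm differed from KO control by 0.45 ± 0.10 (SE) with IL-4 and by 0.35 ± 0.10 (SE) with both cytokines, under the fold threshold, and the first was the only one of the 32 under an adjusted p of 0.01 in that comparison, where 6.44% of all genes were (limma, adjusted p = 0.0035 and 0.021). Pdk2 stood at 3.41, 3.37 and 3.55 RPKM in KO control and 3.19, 2.92 and 3.53 with TGF-β, against 4.18, 4.68 and 4.97 with IL-4 and 3.77, 4.94 and 5.09 with both cytokines. The IL-4 libraries lay above control with no overlap, with or without TGF-β, by 0.33 ± 0.10 (SE) and 0.33 ± 0.10 (SE) (limma, adjusted p = 0.03 and 0.035). Bnip3l stood at 13, 14.4 and 14.8 RPKM in KO control, 12.7, 13.6 and 14.4 with TGF-β, 12.6, 14 and 12.9 with IL-4 and 13.5, 17.8 and 13.9 with both cytokines. Ankrd37 stood at 4.83, 3.99 and 4.8 RPKM in KO control, 5.74, 6.32 and 4.69 with TGF-β, 3.38, 3.52 and 3.08 with IL-4 and 4.28, 5.65 and 5.62 with both cytokines. For both genes the control and TGF-β + IL-4 groups overlapped, and the KO IL-4 libraries of Ankrd37 were the lowest of all.

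The difference between the WT and KO responses to TGF-β + IL-4 was tested as an interaction, KO response minus WT response. It called 5 of the 32 genes, where 5.17% of all genes tested were called. Hk2 differed by 0.85 ± 0.12 (SE) and Ankrd37 by 0.76 ± 0.18 (SE), both of which fell in WT and were not called in KO (limma, adjusted p = 2.4e-05 and 0.0048). Ddit4 differed by -0.71 ± 0.16 (SE), Bnip3l by -0.64 ± 0.12 (SE) and Pdk2 by -0.63 ± 0.14 (SE) (limma, adjusted p = 0.0035, 7.6e-04 and 0.0028). Egln3 differed by -0.54 ± 0.20 (SE) and was not called (limma, adjusted p = 0.067). The count rested on single libraries: 1 gene was called without the third WT TGF-β + IL-4 library, 2 without the first KO TGF-β + IL-4 library and 3 without the second KO control library.

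For TGF-β alone the same interaction called 2, Egln3 at -1.18 ± 0.20 (SE) and Ddit4 at -0.76 ± 0.16 (SE), where 4.23% of all genes were called (limma, adjusted p = 3.3e-04 and 0.0027). For IL-4 alone it called 0 by limma, where 0.113% were called. At an unadjusted p under 0.05 by limma stood 4 of the 32, beside 735 of all 9726 genes tested.

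**Figure D4:**
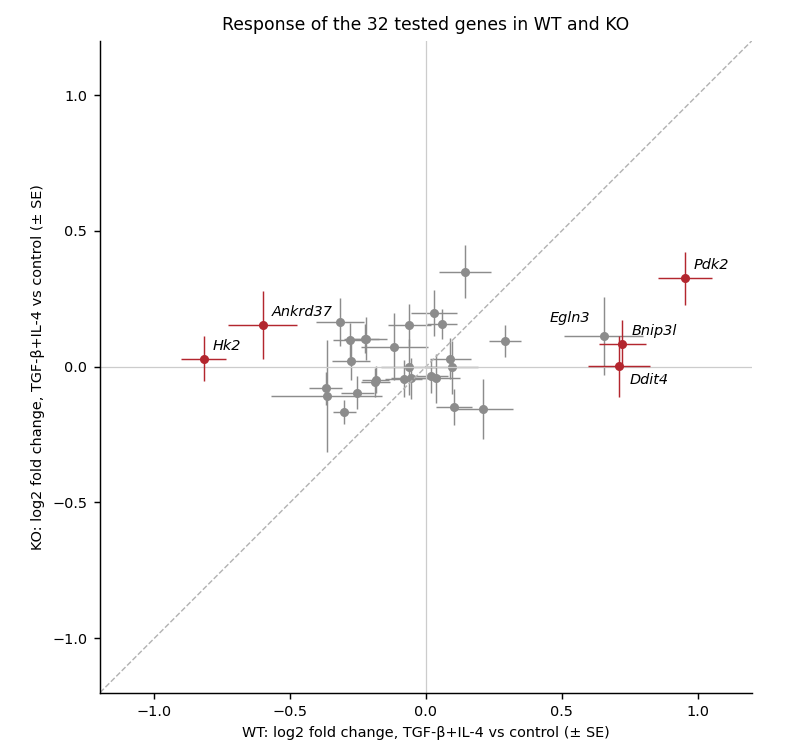
Log2 fold change of the 32 tested genes with TGF-β + IL-4 against control in WT (horizontal axis) and in KO (vertical axis), with SE bars. Points in red are the 5 genes whose response differed between genotypes, the dashed line marks equal responses, and Egln3 is named because it was called in WT. The named genes spread along the WT axis from -0.82 to 0.95, and the highest of them on the KO axis is Pdk2 at 0.33.

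The genotypes also differed without cytokine. Against WT control, KO control had 2 of the 32 genes called, both lower, where 2.64% of all genes were called (2.07% lower). Markers of other cells separated the same groups. In KO control and WT control, respectively, the 5 B cell genes summed to 9.27 to 10.51 and 14.8 to 23.3 RPKM, the 2 CD8 genes to 14.8 to 16.7 and 24.8 to 26.9, the 3 NK cell genes to 2.67 to 2.86 and 3.82 to 4.15, the 3 dendritic cell genes to 1.18 to 1.28 and 1.58 to 2.43, the 3 erythroid genes to 0.0154 to 0.0702 and 0.152 to 22, and the 7 myeloid genes to 0.232 to 2.63 and 4.49 to 8.30. All 6 sums were lower in KO control with no overlap, while those of neutrophil genes overlapped. Hbb-b1 was at 0 in all 24 libraries, Hba-a1 in 21 and Pax5 in 1. The part of these markers in the differences was not tested. Egln3 was lower by 1.09 ± 0.14 (SE), or 2.13-fold, and Slc16a3 by 0.68 ± 0.09 (SE), or 1.6-fold (limma, adjusted p = 1.6e-05 and 1.5e-05). Slc16a3 stood at 11.2, 10.9 and 11.6 RPKM in WT control, 9.54, 8.34 and 7.76 with TGF-β, 10.4, 9.53 and 12 with IL-4 and 8.9, 8.89 and 8.63 with both cytokines. In KO it stood at 6.5, 6.73 and 6.64 RPKM in control, 7.37, 7.38 and 7.21 with TGF-β, 7.27, 7.52 and 8.39 with IL-4 and 6.51, 7.3 and 8.99 with both cytokines. The control groups did not overlap, while the TGF-β + IL-4 groups did. Slc16a3 shares exon sequence with Csnk1d on the other strand, which differed by -0.29 ± 0.22 (SE) in KO control against WT control (limma, adjusted p = 0.40). That is the direction of Slc16a3, with a wide spread, and the part of the overlap was not tested. With no minimum fold, 7 of the 32 genes passed in control, where 8.93% of all genes did.

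Hif1a values lay lower in KO at every treatment. The gene stood at 53.5, 56.1 and 57.8 RPKM in WT control, 50.0, 47.8 and 48.4 with TGF-β, 44.3, 50.6 and 53 with IL-4 and 51, 54.9 and 55.2 with both cytokines. In KO it stood at 37.4, 41.2 and 43.1 RPKM in control, 38.3, 41.6 and 43.1 with TGF-β, 34, 40.9 and 37.2 with IL-4 and 39.2, 42.3 and 36.6 with both cytokines. Every KO library lay below every WT library. The differences were -0.45 ± 0.07 (SE) in control and -0.44 ± 0.07 (SE) with both cytokines, under the fold threshold (limma, adjusted p = 2.2e-04 and 5.9e-05). Within WT, both cytokines differed from control by -0.05 ± 0.07 (SE) (limma, adjusted p = 0.59). Egln1, the hydroxylase PHD2, ranged from 2.17 to 3.45 RPKM over the 24 libraries and was called in no comparison.

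With both cytokines, KO and WT differed at 4 of the 32 genes, where 9.16% of all genes tested were called. Pdk1, a second pyruvate dehydrogenase kinase and a HIF target, was higher in KO by 0.60 ± 0.08 (SE) (limma, adjusted p = 7.0e-06). In WT it stood at 9.8, 10.3 and 11 RPKM in control, 10.52, 11.4 and 11.3 with TGF-β, 10.1, 10.4 and 11.3 with IL-4 and 9.57, 11.3 and 11 with both cytokines. In KO it stood at 13, 14.8 and 15.2 RPKM in control, 13.7, 15.6 and 15.4 with TGF-β, 15.3, 16.5 and 15.1 with IL-4 and 14.9, 19.2 and 15.9 with both cytokines. Every KO library exceeded every WT one. Egln3, Ddit4 and Bnip3l were lower in KO by 1.63 ± 0.14 (SE), 1.10 ± 0.11 (SE) and 0.62 ± 0.09 (SE) (limma, adjusted p = 1.1e-08, 1.3e-07 and 6.5e-06). Slc2a3 stood at 6.26, 6.65 and 7.42 RPKM in KO control, 6.12, 7.08 and 7.27 with TGF-β, 6.35, 6.99 and 7.31 with IL-4 and 7.18, 7.97 and 6.9 with both cytokines. With both cytokines it was higher in KO than in WT by 0.58 ± 0.08 (SE), a fold just under the threshold (limma, adjusted p = 5.5e-06).

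Smaller differences between the genotypes were frequent. With both cytokines and no minimum fold, 15 of the 32 genes differed at an adjusted p under 0.01, where 32.7% of all genes tested did. Pfkp, the platelet-type phosphofructokinase, ranged from 74.9 to 95.4 RPKM over the 12 WT libraries and from 58.7 to 70.6 RPKM over the 12 KO libraries, with no overlap. It was lower in KO by 0.43 ± 0.07 (SE) in control and by 0.49 ± 0.07 (SE) with both cytokines (limma, adjusted p = 3.9e-04 and 1.9e-05). Pgk1, the kinase that makes the first ATP of the chain, lay the other way, by 0.25 ± 0.04 (SE) and 0.38 ± 0.04 (SE) (limma, adjusted p = 4.8e-04 and 5.5e-07). Hk2 was higher in KO with both cytokines by 0.55 ± 0.08 (SE) and Pdk2 lower by 0.53 ± 0.10 (SE), both under the fold threshold (limma, adjusted p = 1.6e-05 and 1.8e-04).

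The KO values of Slc2a1, Ldha and Pkm were as follows. Slc2a1 stood at 50.0, 52.8 and 47.4 RPKM in KO control, 54, 55.9 and 52.6 with TGF-β, 53.6, 56.5 and 62.6 with IL-4 and 49.6, 54.3 and 57.2 with both cytokines. Its KO control libraries lay below those of WT control with no overlap, by 0.25 ± 0.06 (SE), and its response to both cytokines differed between genotypes by 0.38 ± 0.09 (SE), both under the fold threshold (limma, adjusted p = 0.0072 and 0.0039). Ldha stood at 2055, 2165 and 2123, 2118, 2266 and 2194, 2017, 2032 and 2121 and 1897, 2049 and 2153 RPKM in KO control, TGF-β, IL-4 and both cytokines. Pkm stood at 1204, 1299.6 and 1149.9, 1221, 1242 and 1199.8, 1157, 1123 and 1260.3 and 1072, 1141 and 1248 RPKM in the same order. For these 3 genes the KO libraries with both cytokines overlapped with those of their control. Over all 12 libraries of each genotype the KO and WT ranges overlapped too, although the 3 Pkm values of KO TGF-β + IL-4 lay above the 3 of WT TGF-β + IL-4. The 95% intervals of the KO difference from WT with both cytokines were 0.00 to 0.26 for Slc2a1, -0.11 to 0.12 for Ldha and 0.08 to 0.33 for Pkm on the log2 scale.

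**Figure D5:**
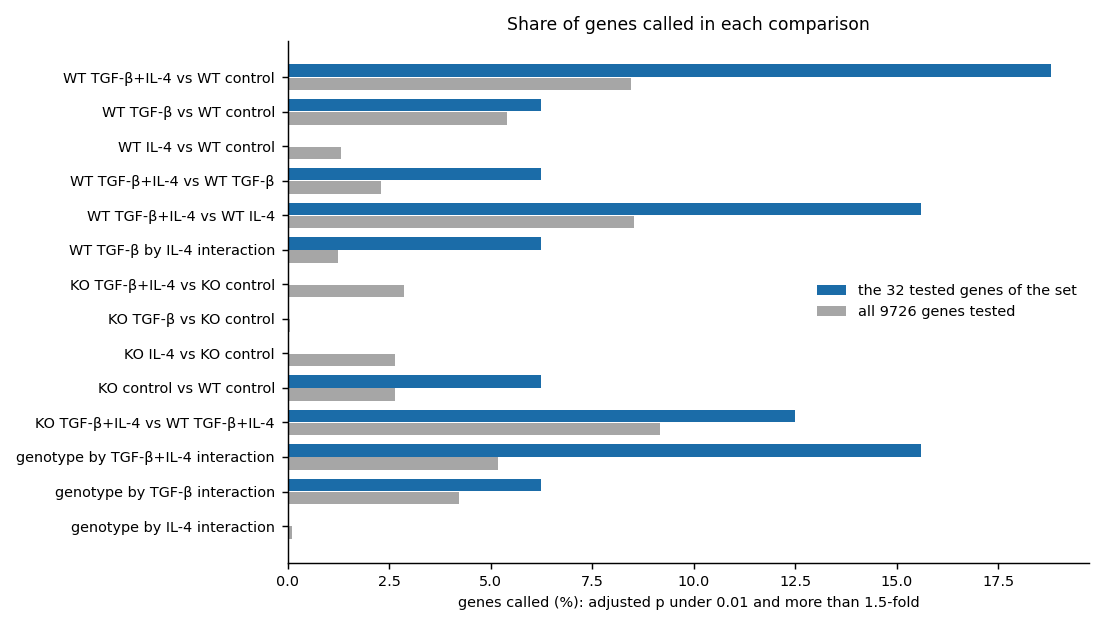
Percent of the 32 tested genes of the list (blue) and of all 9726 genes tested (grey) that were called in each of the 14 comparisons, at an adjusted p under 0.01 and more than 1.5-fold. The blue bar is the longer in WT TGF-β + IL-4 against control, at 18.8% (6 genes) and 8.46%, and is absent in all 3 comparisons within KO.

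Genes of the same pathways outside the list were counted by direction. Of 45 further sugar metabolism genes, 44 were in the table and 29 were tested, of which 2 rose and 1 fell in WT TGF-β + IL-4 against control, where 5.93% and 2.53% of all genes tested did. Slc2a6 and Slc2a8, members of the glucose transporter family, rose by 1.24 ± 0.12 and 0.70 ± 0.11, and Eno3, an enolase best known from muscle, fell by 0.64 ± 0.06 (SE; limma, adjusted p = 8.7e-08, 4.1e-05 and 7.2e-08). Of 28 further genes of oxygen sensing and HIF targets, 22 were tested and 1 was called, Adm, which encodes the peptide adrenomedullin and fell by 1.30 ± 0.14 (SE; limma, adjusted p = 3.1e-07). The medians were 0.06 and -0.02 on the log2 scale, beside 0.02 over all genes tested, of which 8.46% were called in this comparison. Slc2a6 also rose with IL-4 alone in WT, by 0.99 ± 0.12 (SE). Within KO it rose by 2.32 ± 0.12 (SE) with both cytokines and by 2.19 ± 0.12 (SE) with IL-4. In WT, Adm fell by 1.58 ± 0.14 (SE) with TGF-β alone and by 1.26 ± 0.14 (SE) with IL-4 alone. All of these had an adjusted p under 0.01 by limma. Slc2a8 and Eno3 were not called in WT with either cytokine alone or within KO.

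Open chromatin marked every gene of the list in every condition. In all 4 DHS lists, each of the 35 genes had a DHS within the 1000 bp centred on a transcription start. The shares over all 20187 genes with a start in the annotation were 52.3% and 50.7% in the WT lists (control, then both cytokines) and 50.7% and 48.5% in the KO lists, but over the 9340 genes tested in RNA-seq they were 92.1%, 91.0%, 90.7% and 88.3%. The lists held 44298, 33880, 33665 and 27145 DHSs. With the lists cut to equal length the number was 33 of 35 in WT control, and with a minimum of 5 for −log10 of the q-value it was 34 in KO TGF-β + IL-4.

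The DHSs over the starts of the 6 genes called in WT TGF-β + IL-4 were ranked by fold enrichment within their list, 0% being the strongest. The DHS over the Pdk2 start (mm9 chr11:94902533-94903092, overlapping an exon of the gene) ranked 2.23% and 1.25% in the WT lists (control, then both cytokines) and 7.96% and 8.75% in the KO lists. That over the Egln3 start (chr12:55304669-55305065) ranked 25.3%, 50.3%, 36.6% and 60.7% in the same order. That of Ddit4 (chr10:59414397-59414977) ranked 13.8%, 13.1%, 16.4% and 21%, and that of Bnip3l (chr14:67627182-67628083) 10.4%, 7.07%, 6.64% and 5.10%. That of Ankrd37 (chr8:47085026-47085716) ranked 1.41%, 1.63%, 0.223% and 1.34%. The Hk2 promoter DHS (chr6:82724282-82724844) ranked 28.2%, 30.9%, 24.6% and 23.6%, while a DHS in an Hk2 intron (chr6:82690226-82690690) ranked 10.0%, 19.3%, 28.4% and 41.1%. An intergenic DHS upstream of Egln3 (chr12:55311751-55312041) was listed in WT control and in none of the other lists. With 1 library per condition these values have no replicate check, and since list length differs between conditions the ranks do not show a change of a site.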

How the data were processed

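RNA-seq libraries were made from polyA RNA by the Smart-seq2 method, and per the labels reads were mapped with Bowtie2 to mm9. The authors dropped reads of low mapping quality and reads at the same location and orientation, and deposited RPKM values per gene, scaled to library size. The removal of such duplicates can compress the most abundant genes, and the mapping filter drops reads shared with near-identical copies. The deposited DHS lists were called per library with MACS2 and give fold enrichment and −log10 of the q-value. The columns of the RPKM table were read by position, as the report explains.

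The genes and lists were chosen with earlier results of these data known. RPKM values were taken as log2(RPKM + 1) for the 9726 genes with a mean of at least 1 over the 24 libraries. They were tested two-sided with limma 3.58.1 (R 4.3.3), in 1 fit of the 8 group means with a variance trend and Benjamini-Hochberg adjustment over all 9726 genes. The thresholds of adjusted p under 0.01 and fold over 1.5 are the study's. Depth was unknown beyond the relative values given, so that no counting interval could be set. The fit was tested on simulated data with changed genes. Copies of coding sequences were found with minimap2 2.31-r1302, and tables were handled in Python 3.11.15 with pandas 2.3.3. All genes called were named, at most 12 per comparison, the rest were given by counts and ranges, and values in every library were given for called genes and for Hif1a, Slc2a1, Slc2a3, Hk2, Ldha and Pkm. The thresholds with no minimum fold and the genes Pfkp and Pgk1 were chosen after the values were seen. Where the numbered replicates were not separate mice, the p-values measure only the spread between libraries.

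The labels' replicate numbers were read as naming the mouse within a genotype, so that same-numbered libraries of a genotype were taken to come from 1 mouse. Deviations from the group means correlated between libraries of a mouse by -0.089 to 0.553 in WT (median 0.062, 8 of 18 pairs over 0.1) and by -0.297 to 0.415 in KO (median 0.188, 10 of 18 pairs over 0.1). Between libraries with different numbers the correlations ran from -0.56 to 0.316 in WT (median -0.032). In KO they ran from -0.431 to 0.429 (median -0.123), so that the ranges overlapped in both genotypes. Deviations from a mean of 3 libraries sum to 0, which ties the correlations of different numbers to those of the same number. The overlap therefore cannot show whether libraries of a mouse were alike.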

Additional observations from a re-analysis of the deposited data

Results flagged for a closer look

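Responses that differed between the genotypes, by the test of the difference itself (KO response minus WT response, limma with Benjamini-Hochberg adjustment), were found for 6 of the genes. For TGF-β + IL-4 against control the difference was 0.85 for Hk2, 0.76 for Ankrd37, -0.71 for Ddit4, -0.64 for Bnip3l and -0.63 for Pdk2 on the log2 scale. For TGF-β against control it was -1.18 for Egln3 and -0.76 for Ddit4. Loss of the receptor and exposure to tamoxifen cannot be told apart in these differences, and the KO columns were placed by order alone.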

How the results depend on the processing

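Of 163 counts and shares recomputed under alternatives on whole libraries, 137 were labelled the same. For counts of calls this meant equal to the main count, 0 included, or within 1.5 times of it. For DHS and motif counts it meant inside the exact binomial interval of the main share. Of 530 values of single genes under readings by position none changed direction. Some of these settings moved only a threshold, so their values could not change. The mouse as a replicate block changed no call: with it, 6 of the genes were called in WT TGF-β + IL-4 against control and 5 in the genotype difference for TGF-β + IL-4, as without it. A pseudocount of 0.1 gave 0 calls for the WT TGF-β by IL-4 interaction and 7 for KO against WT with both cytokines, and no filter gave 0 for that interaction. A minimum mean of 5 RPKM, which removes Pdk2, Egln3, Ddit4 and Ankrd37 from the test, gave 2 for WT TGF-β + IL-4 against control, 0 for WT TGF-β, 0 for both cytokines against TGF-β, 2 against IL-4, 0 for the interaction, 1 for KO against WT control, 2 with both cytokines, and 2 and 0 for the genotype differences with both cytokines and with TGF-β. Quantile normalization gave 1 for both cytokines against TGF-β, fits of the compared groups alone gave 1 for the interaction and 3 for the genotype difference with both cytokines, and the 8 identified WT libraries gave 0 for the interaction. With no minimum fold, chosen after seeing the data, the counts were 16 for WT TGF-β + IL-4, 5 for WT TGF-β, 4 and 11 for both cytokines against TGF-β and IL-4, 1 for KO IL-4, 7 for KO against WT control and 15 with both cytokines. With columns as headed, all counts of calls were 0, and the share of all genes called is not given here. In that reading Egln3 stood at 0.0697 for both cytokines against TGF-β and 0.34 for the interaction. Pdk2 stood at -0.21 for the interaction and Ankrd37 at -0.0051 for the genotype difference. With GCGTG added, 40 promoters matched. The cause of these changes was not tested unless stated.

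Leaving out 1 library at a time gave 5 to 6 calls for WT TGF-β + IL-4 against control, 2 to 3 for WT TGF-β, 1 to 2 and 4 to 5 for both cytokines against TGF-β and IL-4, 0 to 1 for the interaction, 2 for KO against WT control, 3 to 5 with both cytokines, and 1 to 6 and 2 to 3 for the genotype differences with both cytokines and with TGF-β. The count of 1 for both cytokines against TGF-β came without WT TGF-β replicate 1, without WT TGF-β replicate 2 or without WT TGF-β + IL-4 replicate 3. Relative depth limits the lowest genes most.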
